A study of Mus musculus with 3 samples.

Results

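The 34 genes described here encode hydrolases and membrane proteins of the lysosome, subunits of its proton pump, and the transcription factors TFEB, TFE3 and MITF. They were taken by mouse symbol from a list that leaves out the cathepsins, and all 34 were found among the 54331 features of the deposited table. RAW 264.7 is a transformed mouse macrophage line, labelled here as male and of BALB/c background. All 3 libraries came from cells given lipopolysaccharide (LPS, the bacterial ligand of the receptor TLR4) at 100 ng/mL for 5 h. In 1 library, labelled wild-type, the cells carried a control shRNA. In the other 2, labelled GIV-depleted, they carried shRNA 1 or shRNA 2 against GIV (Girdin), a scaffold protein encoded by Ccdc88a. A library without LPS was not analysed here, so no value below is a response to LPS. The sources used here do not say whether each shRNA line was a clone or a pool.

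Lysosomes are acidic organelles in which hydrolases break down proteins, lipids and sugar chains delivered by endocytosis, phagocytosis and autophagy. The V-ATPase pumps in the protons, heavily glycosylated membrane proteins line the inside, and transporters carry the products out. TFEB and its relatives TFE3 and MITF are transcription factors that bind E-boxes of the CLEAR type, built around TCACGTG, in promoters of many lysosomal genes. In fed cells the kinase mTORC1, acting at the lysosome surface, holds TFEB in the cytoplasm. Macrophages are rich in lysosomes, which digest what these cells engulf.

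The CLEAR letters were looked up in the promoters of these genes, because the 3 factors are known to bind them in many lysosomal genes. RefSeq promoters (GRCm38.p6, 250 bases before to 50 after each start) were matched by symbol for 29 of the 34 genes. Asah1, Atp6v1b2, Atp6v1h, Galns and Npc1 were not matched. TCACGTG, searched on both strands, was found in a promoter of 9 of the 29 genes (31.0%), against 1160 of all 27025 genes with a promoter (4.29%) and 681 of the 9684 tested ones (7.03%). By promoter, it was in 9 of 38 (23.7%), against 3.77% of all 32851. TCACGTG contains the shorter E-box CACGTG, which was found in the promoters of the same 9 genes, of 8.09% of all genes and of 11.8% of tested ones. Its symmetric extension TCACGTGA was found for 5 of the 29 genes (17.2%), for 1.12% of all genes and for 2.18% of tested ones. The related letters TCATGTG, known as the M-box of MITF, were found for 5 of the 29 genes (17.2%), 4.31% of all genes and 2.71% of tested ones. Of the 9, those other than Gla, Lamp1 and Atp6v1a are shown here in 30 bases each, with the E-box in capitals.
Cln3 (chr7:126583340-126583369, minus strand): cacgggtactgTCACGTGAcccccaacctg
Mcoln1 (chr8:3500462-3500491, plus strand): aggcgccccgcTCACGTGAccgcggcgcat
Atp6v0d1 (chr8:105566050-105566079, minus strand): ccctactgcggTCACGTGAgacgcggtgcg
Gaa (chr11:119267810-119267839, plus strand): ttttctgtgcgaTCACGTGtttgactctga
Glb1 (chr9:114401017-114401046, plus strand): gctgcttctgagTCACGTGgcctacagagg
Lgmn (chr12:102439125-102439154, minus strand): atggaatgtctgTCACGTGgtccattttat
The first base of the box lies 4 bases before the start in Atp6v0d1, 46 in Mcoln1, 49 in Glb1, 50 in Lgmn, 122 in Cln3 and 141 in Gaa. Cln3 and Mcoln1 each hold another copy, 149 and 72 bases before the start, and both Cln3 copies are in 1 of the 2 promoters of that gene. The Lgmn box is also in 1 of 2 promoters, and no GENCODE transcript start was found in it, whereas the other 37 of the 38 promoters each held one. RefSeq and GENCODE starts can differ, so some of these bases lie inside GENCODE transcripts.

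Lamp1 has the most boxes of the 9 genes, Gla has the 8-letter form more than once, and Atp6v1a is the one gene with a box that lay above the control in both other libraries, so these 3 are shown beside each other. Lamp1, Gla, Cln3 and Mcoln1, with more than 1 box each, lay below the control in both libraries. Of the genes with 1 box, Lgmn, Glb1 and Atp6v0d1 lay below it in both, Atp6v1a above it and Gaa on either side. Whether the number of boxes goes with direction was not tested. For Lamp1, whose boxes lie close together, the whole 250 bases before the start are given. Capitals mark TCACGTG or TCACGTGA on either strand and, in the last Gla line, TCATGTG.
Lamp1 (chr8:13158911-13159160, plus strand): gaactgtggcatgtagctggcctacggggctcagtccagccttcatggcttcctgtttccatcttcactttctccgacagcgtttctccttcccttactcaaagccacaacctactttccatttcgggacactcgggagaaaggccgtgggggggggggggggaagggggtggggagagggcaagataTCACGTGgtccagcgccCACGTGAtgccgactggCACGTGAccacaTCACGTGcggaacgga
Gla (chrX:134601215-134601244, minus strand): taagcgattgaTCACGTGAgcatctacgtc
Gla (chrX:134601182-134601211, minus strand): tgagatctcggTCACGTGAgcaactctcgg
Gla (chrX:134601199-134601228, minus strand): tgagcatctacgTCATGTGagatctcggtc
Atp6v1a (chr16:44139373-44139402, minus strand): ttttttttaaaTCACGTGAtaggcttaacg
Lamp1 has 4 copies of TCACGTG, which begin 62, 45, 28 and 16 bases before its start. Gla has the 8-letter form at 228 and at 195 bases before its start, with TCATGTG between them at 211. Atp6v1a has a single 8-letter form at 132. Other genes of the pathway, from the lists described further on, held TCACGTG in 25 of 113 cases (22.1%). By list this ran from 17.4% for other membrane proteins to 38.5% for enzyme sorting. The letters alone are a description and show no binding.

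Totals ran from 47349097 to 49756670 normalized counts per library, on a scale that hides the number of reads. Ccdc88a itself had 2580 normalized counts in the control library against 1734 in that labelled shRNA 1 and 2561 in that labelled shRNA 2, so the transcript level in the last library goes against its label. On the log2 scale used here its difference over both libraries was -0.29 (moderated SE 0.28, adjusted p = 0.85 in limma). In the library labelled shRNA 1 the difference was -0.57, just short of the 0.585 of a 1.5-fold change. Of all tested features, 7.85% were at least 1.5-fold lower in that library. Because Ccdc88a was near the control in the library labelled shRNA 2, values of that library are given apart. Every limma result and every difference over both libraries still includes it as labelled. Both differences share the single control library, which has no replicate error of its own. The macrophage markers Lyz2, Cd68, Cd14, Spi1, Itgam, Adgre1, Csf1r and Fcgr1 had between 6272 and 199781 normalized counts in every library, while Mertk was between 10.6 and 15.0. Marker sums of other cell types were 3.84 to 6.54 for 6 fibroblast genes, 0 to 4.45 for 4 epithelial genes, 8.42 to 26.9 for 4 lymphocyte genes, 45.6 to 77.4 for 5 neutrophil genes (nearly all of it S100a8) and 38.5 to 58.9 for 5 melanocyte genes. Col3a1, Epcam, Cdh1, Krt18, Cd3e, Ly6g, Elane and Tyrp1 were at 0 in all 3 libraries. The 5 dendritic cell genes summed to 311 to 404, nearly all of it Xcr1, with Flt3 and Cd209a at 0.

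All 34 genes were expressed in these macrophages and passed the filter, a mean value of at least 10. Levels between genes were compared as normalized counts per kilobase of the longest coding transcript. On that scale in the control library, progranulin (Grn) led with 21028, ahead of Lamp1 with 17573 and Npc2 with 12589. Cd63 had 11724 and Psap 11066. The lowest were the beta-mannosidase gene Manba with 276, the cystine exporter gene Ctns with 123 and Tfeb with 69.5. Grn and Lamp1 exchanged places when all exons of a gene were counted as its length, and Cd63 moved from rank 4 to 9 and Lamp2 from 7 to 13, while Manba, Ctns and Tfeb kept ranks 32 to 34. Among tested protein-coding genes the level per kilobase of Grn stood at percentile 98.6, that of Ctns at 29.0 and that of Tfeb at 21.8. TFE3 and MITF transcripts were far more abundant per kilobase than that of TFEB, with 1871 for Tfe3 and 849 for Mitf in the control. With all exons as the length, Tfe3 and Mitf were close in the control, at 685 and 669, against 28.7 for Tfeb. On that length Mitf was the higher of the pair in the library labelled shRNA 1, at 677 against 637.

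**Figure D1:**
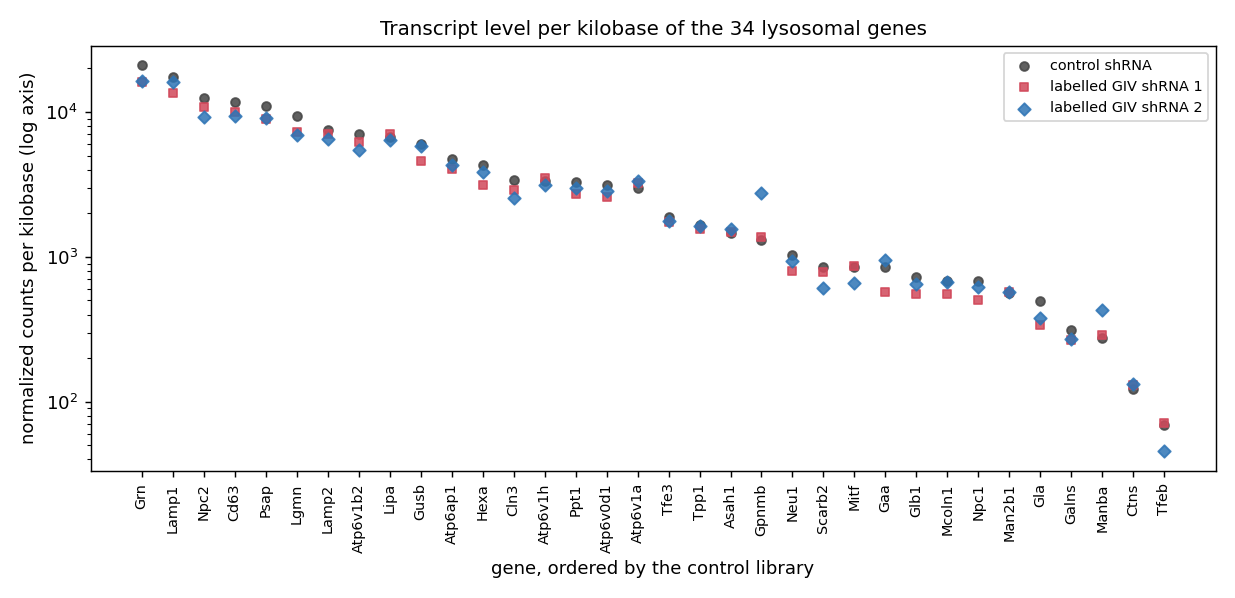
Normalized counts per kilobase of the longest coding transcript (log axis) of the 34 lysosomal genes in the control library and the libraries labelled GIV shRNA 1 and GIV shRNA 2, ordered by the control. Levels run from 21028 for Grn to 69.5 for Tfeb in the control, and Gpnmb in the library labelled shRNA 2 is the point farthest above its control value.

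Most of these genes had lower values in both libraries labelled GIV-depleted than in the control. In 23 of the 34 both libraries lay below the control, against 35.2% of the 13877 tested features, and in 6 both lay above it, against 34.9%. In the remaining 5 the libraries lay on opposite sides of the control. The median difference on the log2(value + 1) scale was -0.21 over both libraries and -0.23 and -0.14 in those labelled shRNA 1 and shRNA 2, where the medians of all tested features were -0.0015, 0.0005 and -0.0021. Taken alone, the library labelled shRNA 1 was below the control in 24 of the 34 genes (49.8% of all features), and the library labelled shRNA 2 in 27 (50.3% of all features). Summed over the 34 genes there were 383465 normalized counts in the control library against 328223 in that labelled shRNA 1 and 333903 in that labelled shRNA 2, which is 85.6% and 87.1% of the control. Because these are bulk libraries, fewer cells of a type and less RNA per cell cannot be told apart.

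Single differences were small, and no gene among the 34 passed the test. Limma called 0 of the 34 and 0 of the 13877 features (0%) at an adjusted p of 0.05, on 1 residual degree of freedom, with the lone control assumed to vary as the other libraries do. At an unadjusted p under 0.05 there were 3 genes, all lower (Lgmn, Grn and Gla), against 2.42% of all features on the lower side, and 0 on the higher side, against 4.52%. Without the variance trend 0 of the 34 had an unadjusted p under 0.05. By a rule of at least 1.5-fold, the library labelled shRNA 1 had 0 of the 34 genes lower (7.85% of all features) and 0 higher (8.83%). The library labelled shRNA 2 had 1 lower (7.19%), which was Tfeb, and 2 higher (9.99%), which were Gpnmb and Manba. Tfeb, at -0.61 in that library, was close to the limit of 0.585 and no longer passed it with equal totals (-0.55) or with the trend on GC content and length removed (-0.35). The plot of cumulative shares shows a shift of the middle of the distribution with few large differences.

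**Figure D2:**
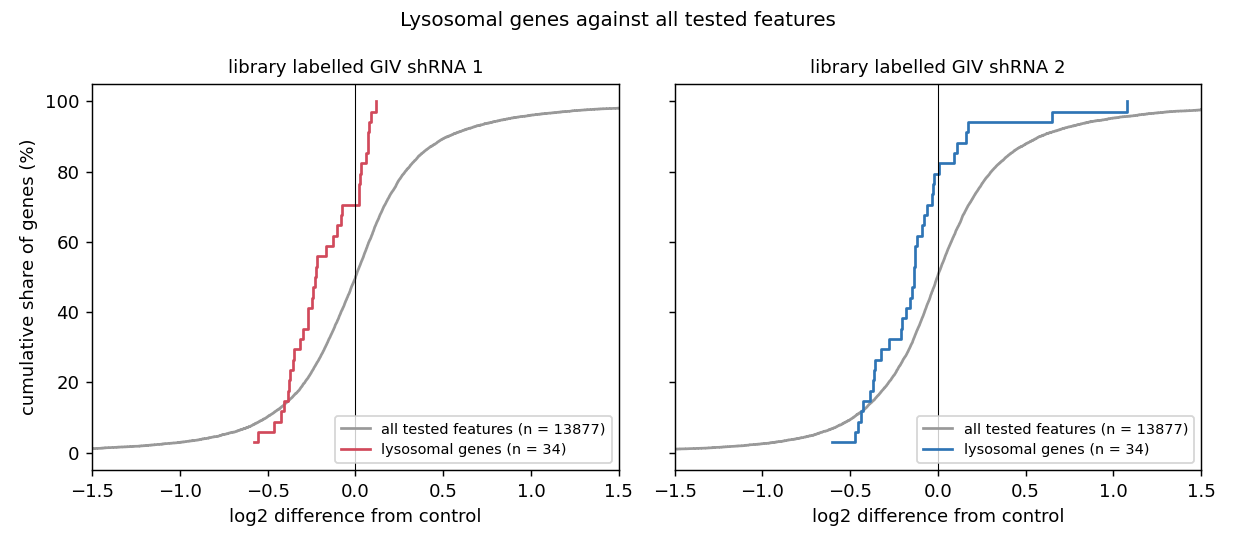
Cumulative share of genes (%) by log2 difference from the control, for the 34 lysosomal genes (red, blue) and the 13877 tested features (grey), in the library labelled GIV shRNA 1 (left) and GIV shRNA 2 (right). The coloured curves cross zero at 70.6% and 79.4% of the 34 genes, against 49.8% and 50.3% of all features.

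Of 5 structural membrane proteins, 4 lay below the control in both libraries and 1 above it. Lamp1 (chromosome 8, 13159161 to 13175338, GRCm38), one of the major glycoproteins lining the lysosome, had 39171 normalized counts in the control library against 30243 in that labelled shRNA 1 and 35657 in that labelled shRNA 2. Its relative Lamp2, which also serves chaperone-mediated autophagy, had 27092, 25574 and 23446 in the same order. Both lay below the control in both libraries, Lamp1 more so in the library labelled shRNA 1 and Lamp2 in the library labelled shRNA 2. The tetraspanin Cd63, found on late endosomes and exosomes, had 13002, 11016 and 10397. Scarb2, which carries glucocerebrosidase to the lysosome, had 4009, 3676 and 2887, the last being 72.0% of the control.

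Gpnmb went the other way and had the largest difference of the 34 genes. This gene (chromosome 6, 49036546 to 49070929) encodes a transmembrane glycoprotein of macrophages, osteoclasts and melanocytes. It had 4815 normalized counts in the control library against 5114 in that labelled shRNA 1 and 10145 in that labelled shRNA 2. The library labelled shRNA 1 was thus near the control at 106% of it, and the library labelled shRNA 2 stood at 211%. Over both libraries the log2 difference was 0.58 (moderated SE 0.44, 95% interval -0.65 to 1.81, adjusted p = 0.83 in limma), and the library labelled shRNA 1 alone gave 0.09. Of 8 osteoclast markers 6 were tested. These 6 split in the library labelled shRNA 1, with 2 lower than the control and 4 higher (49.8% of all features were lower). All 6 were lower in the library labelled shRNA 2 (50.3% of all features). Whether Gpnmb goes with these markers was not tested. Their summed level over all 8 was 8629 in the control and 15506 and 5065 in the others, the largest part being Mmp9 (4632, 10440 and 2188), with Calcr at 0 in every library. Tyr, the tyrosinase of pigment cells, had 45.7, 32.4 and 28.8 normalized counts.

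Among the 9 glycosidases and sulfatases, 6 lay below the control in both libraries, 2 above it in both, and 8 had a higher value in the library labelled shRNA 2 than in the library labelled shRNA 1. Gla (chromosome X, 134588149 to 134601125), the alpha-galactosidase that is deficient in Fabry disease, had the largest lower difference over both libraries among the 34 genes. Its values were 1571 normalized counts in the control library against 1068 in that labelled shRNA 1 and 1203 in that labelled shRNA 2, both well below the control at 68.0% and 76.5% of it. The log2 difference was -0.47 (moderated SE 0.17, 95% interval -0.94 to -0.004, unadjusted p = 0.049, adjusted p = 0.71 in limma).

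Hexa, the alpha subunit of beta-hexosaminidase, had 8603 normalized counts in the control library against 6247 in that labelled shRNA 1 and 7717 in that labelled shRNA 2. The beta-galactosidase gene Glb1 had 1752, 1322 and 1548, and Neu1, the sialidase that works in a complex with it, had 2533, 1983 and 2333. These genes had their lowest value in the library labelled shRNA 1 and a middle value in the library labelled shRNA 2. Gusb, a beta-glucuronidase of glycosaminoglycan breakdown, showed the same order with 16075, 12325 and 15685, the last being 97.6% of the control. Galns, a sulfatase of keratan sulfate breakdown, was lower by a like amount in both, with 799, 681 and 693.

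Acid alpha-glucosidase (Gaa, chromosome 11, 119267887 to 119285454), which degrades glycogen, differed most between the libraries labelled GIV-depleted in this group. It had 3073 normalized counts in the control library against 2062 in that labelled shRNA 1 and 3455 in that labelled shRNA 2, which puts one below and one above the control. The mannosidase genes of this group, Manba and Man2b1, were not below the control. A further one, Man2b2, is in the list of other enzymes described further on. It lay below the control in both libraries, with 3083 normalized counts in the control library against 2479 in that labelled shRNA 1 and 2554 in that labelled shRNA 2. Manba, the beta-mannosidase, had 1013, 1058 and 1588, so that only the library labelled shRNA 2 departed much from the control, at 157% of it. Man2b1, the alpha-mannosidase, had 2165, 2198 and 2178, a log2 difference of 0.015 over both libraries that became -0.015 under quantile normalization.

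Genes of lipid breakdown and sterol export were mixed. Psap, the precursor of the saposins that help enzymes reach sphingolipids, had 29402 normalized counts in the control library against 23594 in that labelled shRNA 1 and 24207 in that labelled shRNA 2, below the control by like amounts. Npc2, the soluble sterol carrier, had 41531, 35536 and 30319, and its membrane partner Npc1 had 3545, 2640 and 3242. The lowest value was in the library labelled shRNA 2 for Npc2 and in the library labelled shRNA 1 for Npc1. The lipid hydrolases Asah1 and Lipa stayed near the control. Asah1, the acid ceramidase, had 4044, 4110 and 4304, and Lipa, the acid lipase that releases cholesterol from its esters, had 19896, 20911 and 19063.

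The proteases Lgmn and Tpp1, the thioesterase Ppt1 and progranulin all lay below the control in both libraries. Lgmn (chromosome 12, 102394084 to 102439813) encodes legumain, a protease that cuts after asparagine and processes other lysosomal proteases. It had 18575 normalized counts in the control library against 14530 in that labelled shRNA 1 and 13740 in that labelled shRNA 2, both about equally far below. The log2 difference was -0.39 (moderated SE 0.13, 95% interval -0.74 to -0.05), with an unadjusted p of 0.034. Its adjusted p in limma was 0.69, and no other of the 34 genes had a lower one. Grn (chromosome 11, 102430315 to 102437048), whose product progranulin is secreted and also cut into granulins inside lysosomes, had 49206, 37829 and 38206. The libraries labelled GIV-depleted were nearly equal, at 76.9% and 77.6% of the control. The difference was -0.37 (moderated SE 0.13, 95% interval -0.73 to -0.02, adjusted p = 0.71 in limma). Ppt1, a thioesterase that removes fatty acids from proteins, had 7787, 6466 and 7119. Tpp1, a tripeptidyl peptidase, stayed closest to the control with 5882, 5577 and 5791.

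Membrane transport genes followed no single direction. Cln3, a lysosomal membrane protein lost in juvenile Batten disease, had 10925 normalized counts in the control library against 9215 in that labelled shRNA 1 and 8118 in that labelled shRNA 2. Mcoln1, the calcium channel TRPML1, had 1414, 1147 and 1388, so that the library labelled shRNA 2 was at 98.1% of the control. Ctns, the cystine exporter, had 334, 353 and 361, slightly above the control in both.

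The V-ATPase subunits did not share a direction either. The catalytic subunit gene Atp6v1a (chromosome 16, 44085402 to 44139705) had 12565 normalized counts in the control library against 13642 in that labelled shRNA 1 and 14038 in that labelled shRNA 2. Its partner in the peripheral ring, Atp6v1b2, had 19792, 17596 and 15322, below the control in both where Atp6v1a was above. The membrane-sector subunit gene Atp6v0d1 had 5113, 4232 and 4625, and the accessory subunit gene Atp6ap1 had 10311, 8847 and 9371. For Atp6v1h, a regulatory subunit, the values were 6820, 7171 and 6409, and its mean difference of -0.01 became 0.008 with equal totals.

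The transcription factors themselves differed little in the library labelled shRNA 1. Tfeb (chromosome 17, 47737030 to 47792419) had 163 normalized counts in the control library against 167 in that labelled shRNA 1 and 107 in that labelled shRNA 2. The library labelled shRNA 2 was the only low one, at 65.5% of the control. Over both libraries the difference was -0.29 (moderated SE 0.40, adjusted p = 0.90 in limma), and it was -0.05 with the trend on GC content and length removed. Mitf had 4142, 4194 and 3233, again lower only in the library labelled shRNA 2, at 78.0% of the control. Tfe3, which had the most normalized counts of the 3 factors, was at 6343, 5899 and 6008. Its difference of -0.09 became 0.02 with the trend on GC content and length removed. Isoforms of these genes cannot be told apart in a table by gene, and the location of the proteins, through which TFEB is mainly controlled, was not measured.

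**Figure D3:**
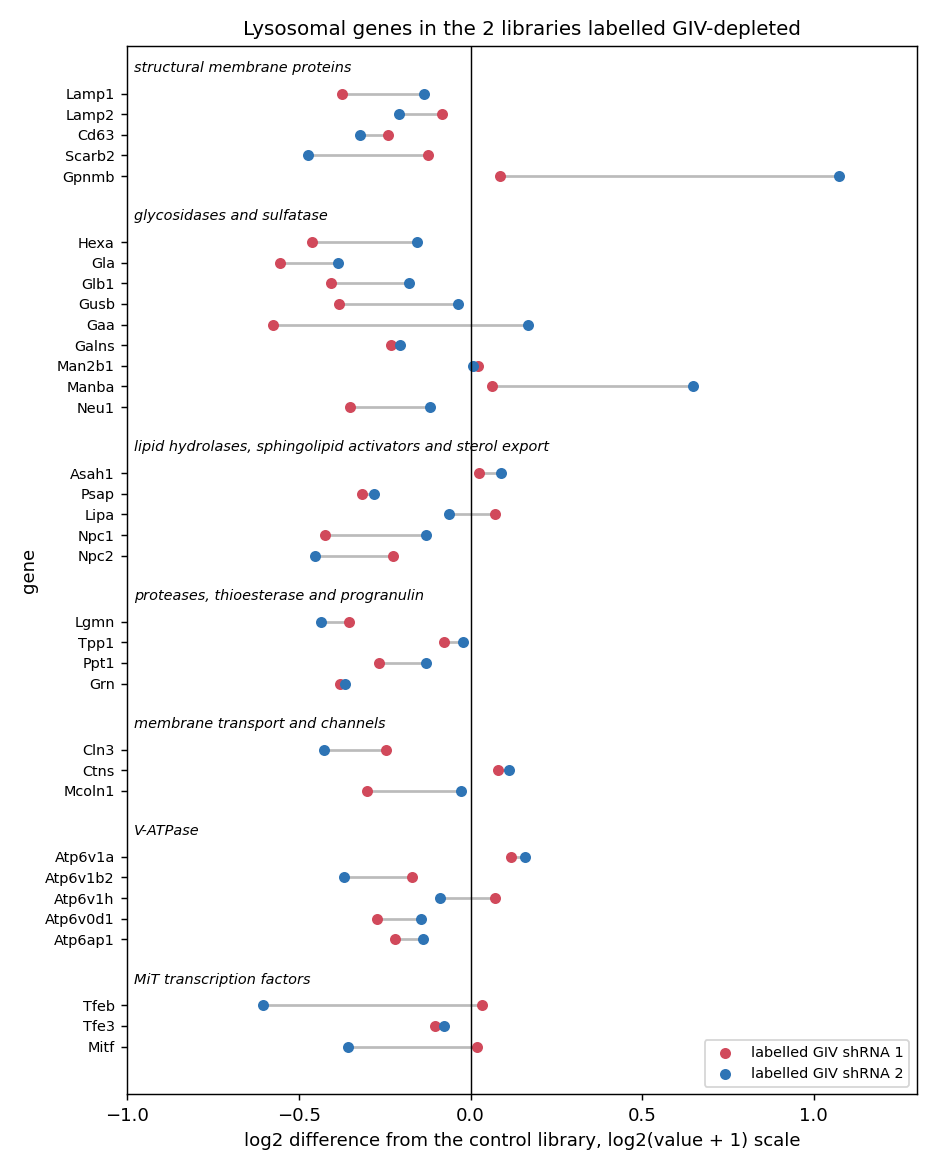
Log2 difference of each library labelled GIV-depleted from the control for the 34 genes by role, with a grey line joining the 2 libraries (shRNA 1 red, shRNA 2 blue). Both points lie left of zero for 23 genes and right of it for 6, and Gpnmb spans from 0.09 to 1.08.

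The 34 genes varied in how far apart the libraries labelled GIV-depleted were. On the log2 scale they were 0.01 apart for Grn, 0.04 for Psap and 0.99 for Gpnmb. By the rule of at least 1.5-fold, 3 genes were higher in the library labelled shRNA 2 than in the library labelled shRNA 1 (8.96% of all features), which were Gpnmb, Gaa and Manba. Tfeb was the 1 gene lower by that rule (6.54% of all features). The library labelled shRNA 2 had the higher value in 22 of the 34 genes, against 49.5% of all features. There was 1 library per shRNA, so this comparison has no test.

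Genes with the CLEAR letters in a promoter were set beside those without. Of the 9 with TCACGTG, 7 lay below the control in both libraries (35.2% of all features), Atp6v1a lay above it and Gaa on either side. Of the 20 with a matched promoter and no TCACGTG in it, 13 lay below in both, 4 above in both and 3 on either side. Median differences were -0.35 and -0.15 in the libraries labelled shRNA 1 and shRNA 2 for the genes with the letters, and -0.12 and -0.13 for those without. Over both libraries the medians were -0.25 and -0.19, and -0.22 for the 5 genes with no matched promoter. These groups are small and their difference was not tested.

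GC content of the transcript moved with the differences. Among 11611 tested protein-coding genes, those with over 50% GC lay below the control in both libraries in 45.6% of cases, and those with up to 50% in 23.4%. Of the 20 lysosomal genes with over 50% GC, 17 lay below in both, and of the 14 with up to 50% GC, 6 did (42.9%). Median GC was 51.1% for the 34 genes and 49.8% for all tested protein-coding genes, and median transcript length was 2748 and 3114 bases. With a trend on GC content and length removed from each library, 22 of the 34 genes lay below in both libraries, against 32.5% of features, and the median difference was -0.16. Abundance was also compared, as 19 of the 34 genes had a mean value of at least 5000. Of these 19, 15 lay below the control in both libraries (78.9%), against 36.8% of all tested protein-coding genes of that abundance. Of the 12 with a mean value of 1000 to 5000, 7 did (58.3%), against 33.9%. Of the 3 under 1000, 1 did (33.3%), against 33.6%. Mitochondrially encoded transcripts, a measure of RNA quality and cell state, took 1.43% of the control and 0.995% and 1.14% of the libraries labelled shRNA 1 and shRNA 2, and their part in these results was not tested.

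**Figure D4:**
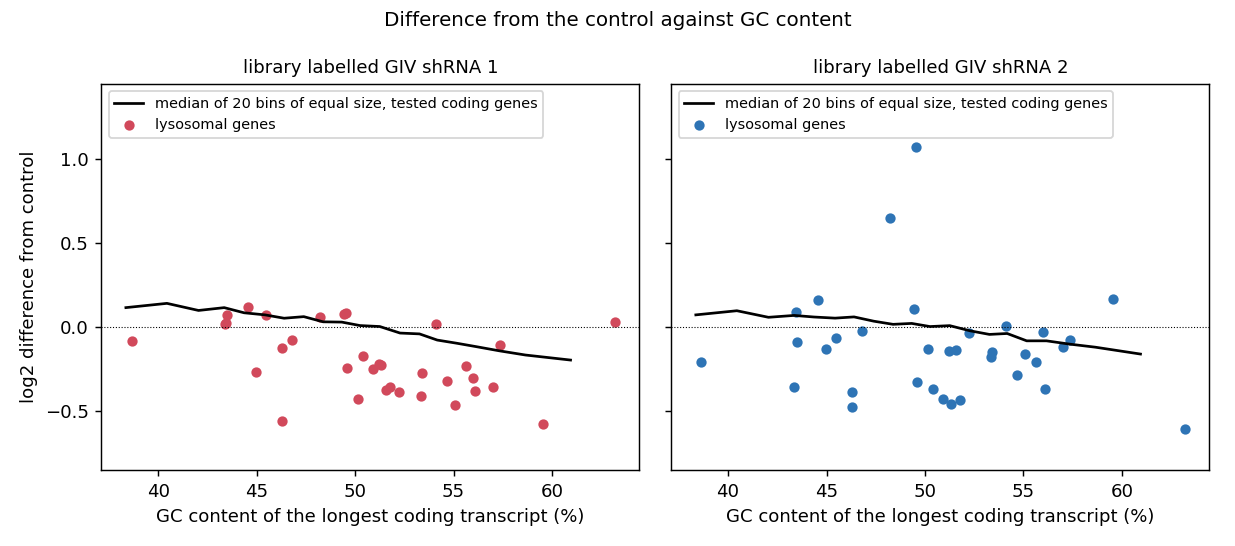
Log2 difference from the control against GC content of the longest coding transcript (%) for the 34 lysosomal genes (points) and the median of tested protein-coding genes in 20 bins of equal size (black line), in the library labelled GIV shRNA 1 (left) and GIV shRNA 2 (right). The black line falls with GC content, and most points with over 50% GC lie below it.

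The other genes of the pathway were taken from 6 lists. In these, 142 of 144 genes passed the filter. Of them, 69 (48.6%) lay below the control in both libraries, against 35.2% of all features, and 34 (23.9%) above, against 34.9%. No gene of these lists passed an adjusted p of 0.05 in limma, and at an unadjusted p under 0.05 there were 4 lower, among them Tcirg1, Slc11a1 and Mfsd12, and 1 higher (Gga3). For 142 genes these counts are near the 2.42% of all features on the lower side and under the 4.52% on the higher side.

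The lists of other enzymes and of other membrane proteins resembled the 34 genes in their counts. Of 29 other lysosomal enzymes and cofactors, 19 (65.5%) lay below the control in both libraries and 2 (6.9%) above. Their medians were -0.19 and -0.15 in the libraries labelled shRNA 1 and shRNA 2. Acp5 and Hyal2 were among the 3 genes of this list with the largest differences over both libraries. Acp5, the tartrate-resistant acid phosphatase, had 450 normalized counts in the control library against 549 in that labelled shRNA 1 and 197 in that labelled shRNA 2, low in the library labelled shRNA 2 only. Hyal2, a hyaluronidase, had 584, 669 and 917, above the control in both. The 26 tested membrane proteins and transporters had 16 genes (61.5%) below and 2 (7.69%) above. Mfsd12, a cysteine importer of lysosomes and melanosomes, had 6010, 3007 and 3225, low in both, with a log2 difference of -0.95 (moderated SE 0.13, adjusted p = 0.28 in limma). Slc46a3, a lysosomal transporter, was at 11.4, 43.5 and 11.8, high in the library labelled shRNA 1 only, and Tpcn2, a cation channel, had 815, 573 and 619.

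Sorting, signalling and autophagy genes stood nearer to the background of all features, 35.2% below the control in both libraries and 34.9% above. Among 17 genes that sort enzymes to lysosomes, 5 (29.4%) lay below the control in both libraries and 7 (41.2%) above. Gga3, an adaptor of mannose 6-phosphate receptor traffic, had the largest difference of all 6 lists, with 1161 normalized counts in the control library against 4076 in that labelled shRNA 1 and 4003 in that labelled shRNA 2. Its log2 difference was 1.80 (moderated SE 0.13, adjusted p = 0.16 in limma). Sort1, another sorting receptor, had 183, 159 and 281, and Ap1b1, a subunit of the AP-1 coat, had 3353, 3725 and 3986. The 13 further V-ATPase subunits stood farther from that background in the share below the control, with 7 (53.8%) below and 4 (30.8%) above. Tcirg1, the a3 subunit of macrophages and osteoclasts, had 42239, 29411 and 29518, low in both at a log2 difference of -0.52 (adjusted p = 0.57 in limma), whereas its relatives Atp6v0a1 (1835, 3725 and 2063) and Atp6v0a2 (4510, 6572 and 4655) were highest in the library labelled shRNA 1.

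Of the 21 tested genes around TFEB control, 9 (42.9%) lay below the control in both libraries and 7 (33.3%) above, with medians of -0.03 and -0.01. Tfec, another relative of TFEB found in macrophages, had 144 normalized counts in the control library against 40.2 in that labelled shRNA 1 and 171 in that labelled shRNA 2. Only the library labelled shRNA 1 was low, the reverse of Tfeb and Mitf. Gsk3b, a kinase that acts on TFEB, had 2028, 2537 and 2779, and Ppp3ca, a catalytic subunit of the phosphatase calcineurin, had 743, 789 and 1102. Autophagy genes had 13 of 36 (36.1%) below and 12 (33.3%) above, with medians of 0.02 and -0.08. Wipi1, which binds forming autophagosomes, was low in both libraries with 23.1, 9.26 and 7.57, and Optn, an autophagy receptor, was near the filter with 11.2, 14.5 and 29.2. Vps39, a tethering subunit of the HOPS complex, had 3107, 3549 and 920, low in the library labelled shRNA 2 only.

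**Figure D5:**
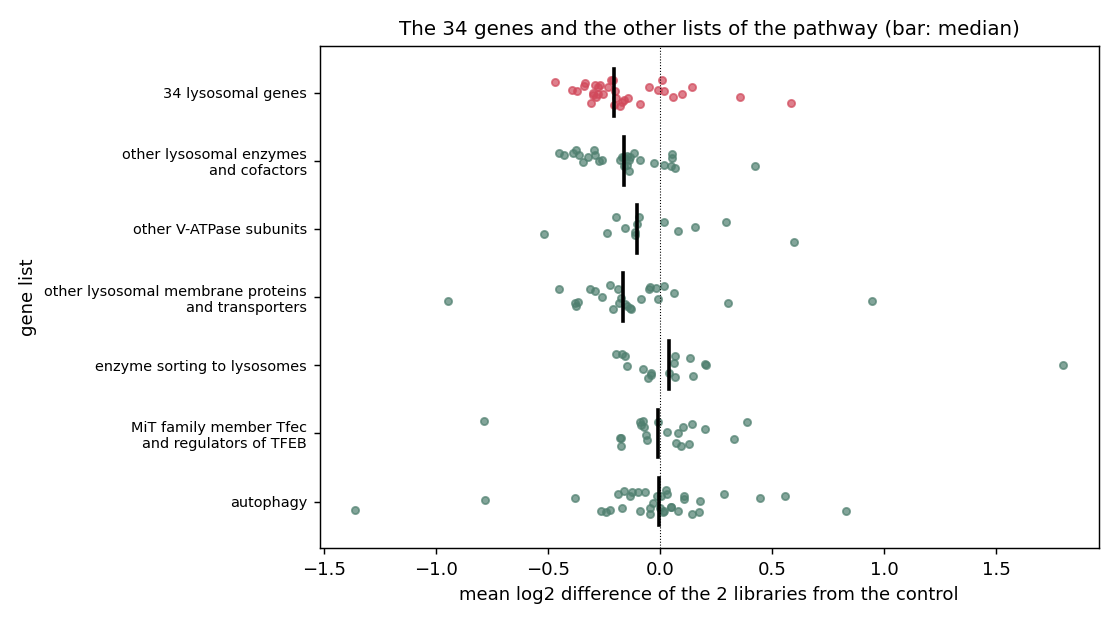
Mean log2 difference of the 2 libraries labelled GIV-depleted from the control for each tested gene of the 34 lysosomal genes (red) and the 6 other lists of the pathway (green), with a black bar at the median of each list. The medians are -0.21 for the 34 genes, -0.16 for other enzymes, -0.17 for other membrane proteins and -0.10 for other V-ATPase subunits, against 0.04, -0.01 and -0.01 for sorting, TFEB regulators and autophagy.

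Most macrophage markers were also lower in both libraries. Of 9 markers, 6 lay below the control in both libraries (35.2% of all features) and 0 above (34.9%). Their summed level was 75.8% and 80.8% of the control in the libraries labelled shRNA 1 and shRNA 2, against 85.6% and 87.1% for the 34 genes. Lyz2, the lysozyme gene, made up much of that sum with 199781, 121997 and 138145 normalized counts, and without it the other 8 markers summed to 87.5% and 90.1% of the control. Of those 8, which summed to 253176.5 normalized counts in the control, Cd14 made up much (119577, 122965 and 112411) and stayed near the control. Each sum thus leans on 1 abundant gene. Itgam and Adgre1 were above the control in the library labelled shRNA 2. Cd68 is also in the list of other membrane proteins. Their part in the lysosomal result was not tested. Exons of 8 of the 34 genes overlap those of another gene, for 7 on the opposite strand and for Glb1 on the same strand (Tmppe, with 300, 347 and 280 normalized counts). The opposite-strand neighbours with over 1000 normalized counts were Cap1 beside Ppt1 (41179, 43800 and 39582), Apobr beside Cln3 (10822, 9385 and 9567) and Rmc1 beside Npc1 (1658, 1631 and 1437), and since the counting is not stated to use strand, values of Ppt1, Cln3 and Npc1 are uncertain to that extent. The pseudogene Cd63-ps had 33.7, 35.5 and 25.9 normalized counts, far under Cd63.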

How the data were processed

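Stranded mRNA libraries of RAW 264.7 cells were sequenced, 1 with a control shRNA and 2 labelled GIV-depleted. The deposited table gives normalized counts per gene, made by the authors and used here as a signal with no negative values. The submitters' processing notes name Salmon, DESeq, DESeq2 and the build GRCm38, with neither versions nor roles. The sources used here name no annotation release. Only 82.9% to 83.5% of low values lay within 0.1 of a whole multiple of the commonest lowest value (0.931 to 1.11), so reads were not recovered and no count model was fitted.

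Symbols were found for 54097 of 54331 identifiers. Positions, lengths and GC content came from GENCODE M21 (GRCm38), and promoters from RefSeq (GRCm38.p6). The 13877 features with a mean of at least 10 were put on the log2(value + 1) scale, which understates fold changes of low genes, and fitted with limma 3.58.1 in R 4.3.3 (mean-variance trend, two-sided, Benjamini-Hochberg over all features). The standard errors are limma's moderated ones. The method was tested on simulated data with noise drawn as limma assumes and changes of at least 2-fold. That test does not cover differences as small as those of most of the 34 genes. The series text calls the 2 shRNAs biological replicates, but no label names separate cultures or days. The p-values therefore set the mean difference from the control against the spread between these 2 libraries, moderated over all features, and that spread may be technical. The 34 genes and all lists were chosen with earlier results of these data known. By rule, all 34 genes were named, with Tfec and the 3 tested genes of each pathway list with the largest mean difference, and markers, except a few genes that are not reported here. Mmp9, Tyr, Slc11a1, Man2b2 and the overlapping genes were chosen after their values were seen. Alternatives covered the pseudocount, filter, scaling, GC and length trend, variance trend, fold rule and leaving out a library. The marker sum without its most abundant gene was added after the data were seen.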

Additional observations from a re-analysis of the deposited data

How the results depend on the processing

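Among the 34 genes, limma called 0 under every alternative run. Over all features it called 1 with a mean of at least 50 and 1 with equal totals. The number of the 34 genes below the control in both libraries labelled GIV-depleted ranged from 21 with equal totals to 23, and the number above it from 5 with quantile normalization to 6. The median difference ranged from -0.21 to -0.16, the latter after removal of the trend on GC content and length. Leaving out 1 library labelled GIV-depleted gave medians of -0.228 to -0.137, the smaller one being that of the library labelled shRNA 2 alone. The counts were then 24 to 27 below and 7 to 10 above, an alternative chosen after seeing the data. In the library labelled shRNA 1, 0 genes passed 1.5-fold, but 1 did with equal totals, quantile normalization or the GC trend removed. In that labelled shRNA 2, 3 passed 1.5-fold, 2 with equal totals or the GC trend removed (without Tfeb), and 1 passed 2-fold.

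Signs turned for genes near zero or split between the libraries. Leaving out either library gave -0.575 to 0.169 for Gaa, -0.062 to 0.072 for Lipa, -0.09 to 0.073 for Atp6v1h, -0.605 to 0.034 for Tfeb and -0.358 to 0.018 for Mitf. Atp6v1h had 0.008 with equal totals and Man2b1 -0.015 with quantile normalization. After removal of the GC trend Lipa had -0.038 and Tfe3 0.016. The cause was not tested. No paired analysis was possible because there is 1 control library. Depth limits Tfeb most, with 107 to 167 normalized counts.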
